A study of Arabidopsis thaliana with 24 samples.

Results

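Untreated roots of oas-a1.1, an Arabidopsis thaliana mutant of the cytosolic cysteine synthase OASA1, were compared with untreated roots of the wild type (WT, accession Col-0). The comparison took the 6 arrays whose labels name untreated roots, 3 of oas-a1.1 and 3 of WT, out of 24 arrays in 8 groups of 3. Plants of both genotypes were raised on agar plates, moved to hydroponic culture and harvested without cadmium, and total RNA was hybridised to Affymetrix ATH1 arrays. Beside them stand roots of both genotypes given cadmium chloride for 18 h, and untreated shoots of both genotypes. The labels state the cadmium dose as 50 µM in the study design and as 50 mM in the growth and extraction notes. The mutant is a single insertion line (SALK_072213), so an effect of the lost gene and of anything else that differs in that line cannot be told apart. The design text calls the replicates biological, and the labels do not say whether plants were pooled. The hour of harvest is not given in the sources used here.

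Plants build cysteine from O-acetylserine and sulfide with O-acetylserine(thiol)lyases that sit in the cytosol, plastids and mitochondria, and OASA1 is the main enzyme of the cytosol. Cysteine is the entry point of reduced sulfur into proteins, methionine and glutathione, the thiol that feeds peroxide removal and, in plants, the chelation of cadmium. Roots take up sulfate and export it to the shoot, where much of it is reduced.

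Values were log2 expression levels made by the authors with RMA, which corrects background, normalizes arrays and summarises each probe set. The 22746 probe sets that are no controls were tested with limma over the 12 root arrays, and a probe set was called where the adjusted p was under 0.05. A difference is oas-a1.1 minus WT on the log2 scale, so 1 is a 2-fold difference. Only 13513 probe sets carried a single listed gene, and a gene is named only from these. PYK10, the abundant root beta-glucosidase, read 11.86 to 12.12 in oas-a1.1 roots and 11.86 to 12.13 in WT roots. The other root markers measured, EXPA7 and EXPA18, differed by -0.34 and -0.28. RCA, the Rubisco activase of green tissue, averaged 6.59 in oas-a1.1 and 6.29 in WT, and all green markers measured differed by 0.06 to 0.65. None of these markers was called. The array levels of the 25S ribosomal RNA control ran from 10.32 to 11.96 in WT. They were 11.67 and 11.28 in oas-a1.1 replicates 2 and 3 but 6.0 in replicate 1, which stands apart among the compared arrays. Replicate 1 was also low in cadmium-treated roots, at 5.6 in WT and 4.75 in oas-a1.1. The actin control read higher at its 3' than its 5' end, by 1.63 on oas-a1.1 replicate 1 and by 1.11 to 1.31 on the other compared arrays. In bulk roots, fewer cells of a type and less RNA per cell cannot be told apart.

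Loss of the cytosolic cysteine synthase went with a small set of changes in roots without cadmium. Of 22746 probe sets 81 were called (0.356%), 37 higher in oas-a1.1 (0.163%) and 44 lower (0.193%). At least 2-fold differences made up 25 of the higher and 32 of the lower calls. The median difference was 1.19 among the higher calls and -1.37 among the lower calls, against 0.013 over all probe sets, of which the 5th and 95th percentiles were -0.38 and 0.33. The 2 groups did not overlap in any of the 81, while groups did not overlap in 9.69% of all probe sets. A further 147 probe sets differed at least 2-fold and were not called, and 1544 had an unadjusted p under 0.05. Single genes were listed for 31 of the calls, 14 higher and 17 lower, and 50 calls had no listed gene.

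**Figure D1:**
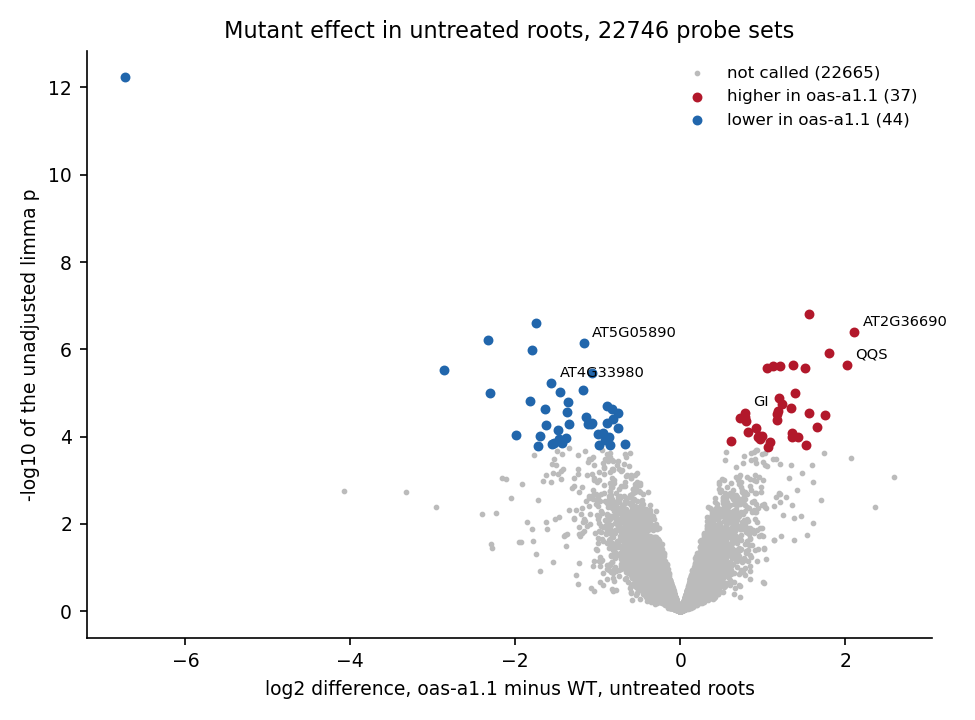
Difference between oas-a1.1 and WT in untreated roots (x axis, log2) against the −log10 of the unadjusted limma p (y axis), 1 point a probe set, with called probe sets in colour. The 37 higher and 44 lower calls lie outside a dense centre, and a single probe set at -6.73 lies far to the left.

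The targeted gene was looked for first. OASA1 had no named probe set, and its transcript could not be followed under that name. The fall that exceeded all others was in probe set 245286_at, for which no gene was listed: it read 4.15, 4.44 and 4.46 on the oas-a1.1 arrays and 11.26, 11.34 and 10.64 on the WT arrays. The mutant values lie near the bottom of the scale, where no array of the study read below 3.27, and the groups are far apart. The difference was -6.73 ± 0.19 (SE; limma, adjusted p = 1.34e-08). No fold is given, since the mutant values are at the bottom of the scale. It was -6.27 in cadmium-treated roots and -7.35 in untreated shoots, and the call held when any single array was left out. The 10 genes with a named probe set that lie nearest to OASA1 in the reference gene order, 5 on each side, differed by -0.20 to 0.27. None was called (adjusted p = 1). They lie up to 10 genes away, and the genes between them without a named probe set were not read.

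Among the genes that rose, AT2G36690, of the 2-oxoglutarate-dependent dioxygenase family of oxidising enzymes, changed most. It read 8.08, 7.63 and 8.31 in oas-a1.1 and 5.67, 5.95 and 6.08 in WT. Every mutant array lay above every WT array, by a gap wider than the spread of either group. The rise was 2.11 ± 0.20 (SE; limma, adjusted p = 0.0023), or 4.31-fold. With cadmium both genotypes were at the level of the untreated mutant, 7.94 ± 0.32 (SD, n = 3) in oas-a1.1 and 7.87 ± 0.14 in WT.

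QQS, an orphan gene of Arabidopsis that acts on starch content, read 6.59, 6.27 and 7.05 in oas-a1.1 and 4.87, 4.29 and 4.70 in WT. All mutant arrays were above all WT arrays. The rise was 2.02 ± 0.23 (SE; limma, adjusted p = 0.00435), or 4.05-fold. The other named starch genes were not called: DPE1, the plastid disproportionating enzyme, differed by -0.17 and APL3, a subunit of ADP-glucose pyrophosphorylase, by -0.10. QQS was thus the sole call of 3 measured starch genes, where 0.356% of all probe sets were called. The list was made with earlier results of these data known, so this count is only a description.

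Another rise that did not depend on any single array was in AT1G59740, of the NRT1/PTR family of nitrate and peptide transporters. It read 9.25, 9.44 and 9.57 in oas-a1.1 and 8.28, 8.43 and 8.40 in WT. The groups were apart on all arrays and tight within themselves. The rise was 1.05 ± 0.12 (SE; limma, adjusted p = 0.00435), or 2.07-fold.

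Further rises were found in enzymes and in proteins of little known role. AT3G14200, which encodes a DnaJ-domain co-chaperone, read 7.46, 7.17 and 8.16 in oas-a1.1 and 6.54, 6.24 and 5.72 in WT, a rise of 1.43 ± 0.24 (adjusted p = 0.0363). AT3G07090, of the PPPDE family of putative thiol peptidases, read 9.41, 9.35 and 10.05 against 8.45, 8.00 and 8.18, a rise of 1.39 ± 0.18 (adjusted p = 0.0107). AT3G15650, of the alpha/beta-hydrolase family, read 8.08, 7.91 and 7.57 against 7.0, 6.19 and 6.32, a rise of 1.35 ± 0.23 (adjusted p = 0.0363). In all 3 the lowest mutant array was above the highest WT array, and the spread was wide, with SDs of 0.23 to 0.51 in each group. AT2G38180, of the SGNH hydrolase family, rose by 1.34 ± 0.19, and AT3G50300, of the HXXXD acyltransferase family, by 1.24 ± 0.17. AT5G54040, a cysteine- and histidine-rich C1-domain protein, rose by 1.19 ± 0.17 and AT3G02910, of the AIG2-like family, by 1.17 ± 0.18. The calls of AT3G14200, AT3G15650, AT3G02910, AT2G38180, AT3G50300 and AT5G54040 were each lost without 2 or more of the 6 arrays left out singly, and that of AT3G07090 was lost without WT replicate 2.

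Smaller rises, under 2-fold, passed for 4 named genes: AT5G04840, of the bZIP transcription factors, at 0.82 ± 0.14, GI at 0.79 ± 0.12, PGM, a phosphoglycerate mutase-like enzyme, at 0.79 ± 0.12, and AT2G20320, a DENN-domain protein, at 0.61 ± 0.11. The call of AT2G20320 was lost in every fit that left out an array, those of AT5G04840 and GI in 5 of the 6, and that of PGM in 3.

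Among the named genes that fell, AT2G32150, of the haloacid dehalogenase-like hydrolases, changed most. It read 9.91, 9.88 and 9.25 in oas-a1.1 and 11.46, 11.31 and 11.36 in WT, so that mutant replicate 3 was lowest and the WT arrays were close together. The fall was -1.70 ± 0.29 (SE; limma, adjusted p = 0.0363), or 3.24-fold. The call held in 1 of the 6 fits that left out an array, that without oas-a1.1 replicate 1. AT1G76590, of the PLATZ zinc-binding family, read 7.96, 7.87 and 7.49 in oas-a1.1 and 9.21, 9.97 and 9.06 in WT, with WT replicate 2 the highest. Its fall was -1.64 ± 0.24 (adjusted p = 0.0183), a call lost without WT replicate 1 or 2 or oas-a1.1 replicate 2 or 3 and with the 6 compared arrays alone.

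AT5G19120, of the aspartyl protease family, read 9.73, 9.72 and 8.90 in oas-a1.1 and 11.14, 10.92 and 10.95 in WT, a fall of -1.55 ± 0.28 (adjusted p = 0.0445). AT1G23390, a Kelch-repeat F-box protein of the kind that selects targets for ubiquitination, read 7.81, 7.05 and 6.78 against 8.75, 8.58 and 8.71, a fall of -1.47 ± 0.25 (adjusted p = 0.0386). AT1G30820, which encodes a CTP synthase of pyrimidine nucleotide synthesis, read 8.52, 8.43 and 8.08 against 9.78, 9.62 and 9.75, a fall of -1.37 ± 0.20 (adjusted p = 0.0194). The WT arrays of these 3 genes were within narrow ranges and the mutant arrays lay below them, with replicate 3 the lowest in each. AT4G19160 read 8.92, 9.28 and 8.47 against 10.15, 10.46 and 10.10, a fall of -1.35 ± 0.21 (adjusted p = 0.0251). The call of AT4G19160 was lost without WT replicate 1 or 2 or oas-a1.1 replicate 3, and those of AT5G19120, AT1G23390 and AT1G30820 without any array other than oas-a1.1 replicate 1.

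AT5G05890, a UDP-glycosyltransferase, read 6.55, 6.91 and 6.54 in oas-a1.1 and 7.84, 7.77 and 7.89 in WT. The groups were separate and the WT arrays nearly equal. The fall was -1.17 ± 0.12 (SE; limma, adjusted p = 0.00278), or 2.24-fold, and the call held without any single array. Another UDP-glycosyltransferase, AT3G46690, fell by 0.76 ± 0.11 (adjusted p = 0.0194). BGLU46, a beta-glucosidase that acts on monolignol glucosides of lignin formation, fell from 8.09 ± 0.13 (SD, n = 3) to 6.97 ± 0.25, by 1.12 ± 0.18 (SE; limma, adjusted p = 0.0251). AT4G18340, of the glucan-hydrolysing glycosyl hydrolases, fell by 1.14 ± 0.17. The calls of BGLU46, AT3G46690 and AT4G18340 were lost without WT replicate 1 or 2 or oas-a1.1 replicate 2 or 3.

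AT3G11420 read 6.78, 6.85 and 7.18 in oas-a1.1 and 7.99, 8.10 and 7.92 in WT. All mutant arrays were below all WT arrays, by a fall of -1.07 ± 0.13 (adjusted p = 0.00508). The call held without any single array and was lost when the 6 compared arrays were fitted alone. AT2G27830 fell by 1.18 ± 0.15, AT1G25550, a nitrate-responsive MYB-like (GARP) transcription factor, by 0.93 ± 0.16, AT3G06750 by 0.86 ± 0.15, AT2G18210 by 0.85 ± 0.15, and SAMTL, an S-adenosylmethionine transporter-like carrier, by 0.67 ± 0.12. The calls of AT1G25550, AT3G06750, AT2G18210 and SAMTL each held in 1 of the 6 fits that left out an array, and that of AT2G27830 was lost without WT replicate 1 or 2. SAMTL also lost its call in 5 other fits, those of the upper 60% of probe sets, the compared arrays, all 24 arrays, quantile normalization and the trended prior.

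**Figure D2:**
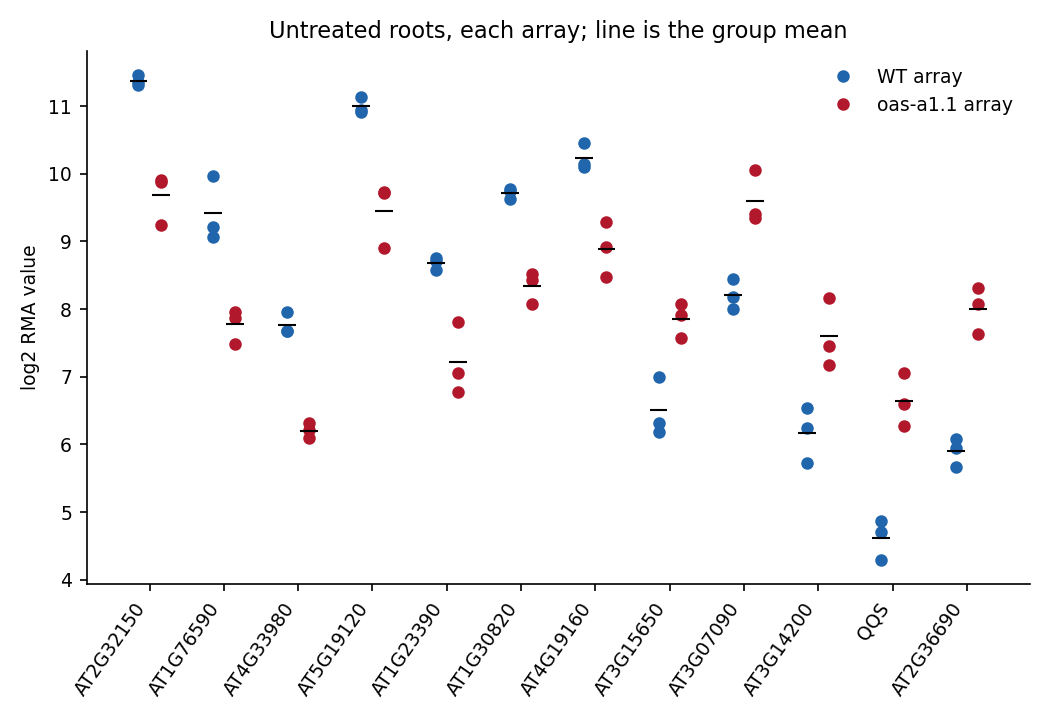
Log2 RMA values (y axis) of the 12 named genes with the largest called differences in untreated roots, each point 1 array and each line a group mean over 3 arrays. In all 12 the oas-a1.1 and WT arrays are separate, and QQS and AT2G36690 show the widest gaps among the rises.

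How far the set of calls rested on single arrays was read by leaving out each array in turn. Leaving out WT replicate 1 gave 21 calls, replicate 2 gave 17 and replicate 3 gave 77. For oas-a1.1 the count was 138 in the absence of replicate 1, 38 in that of replicate 2 and 24 in that of replicate 3. Replicate 1, the array with the low 25S level, was the sole array whose absence raised the count by over 1.5 times, to 73 higher and 65 lower calls. In all 6 fits 16 calls held, 9 higher and 7 lower. Of these 5 had a single listed gene, QQS, AT2G36690, AT1G59740, AT5G05890 and AT3G11420, and 11 had none. At the other end, 5 calls held in no fit and 26 in 1. With the 6 compared arrays fitted alone 36 probe sets were called, and 27 of the 81 were among them.

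**Figure D3:**
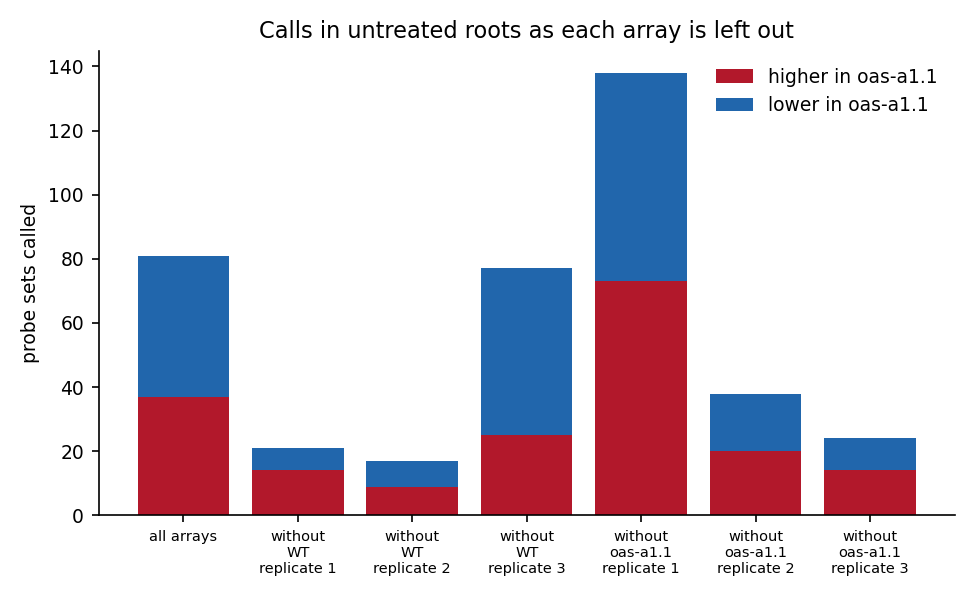
Number of probe sets called in untreated roots (y axis) with all arrays and with each of the 6 compared arrays left out, split by direction. The count is 17 to 38 without WT replicate 1 or 2 or oas-a1.1 replicate 2 or 3, 77 without WT replicate 3 and 138 without oas-a1.1 replicate 1.

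Sulfur metabolism, the setting of the mutated enzyme, could be read from few named genes. Of 14 cysteine synthases and serine acetyltransferases 1 was measured by name: OASA2, a close homologue of OASA1, read 7.04, 6.73 and 6.71 in oas-a1.1 and 7.04, 7.01 and 7.26 in WT. The groups met at 7.04, and the difference was -0.28 ± 0.13 (adjusted p = 0.728). In sulfate uptake and assimilation 3 of 22 genes were measured and none passed, with a median of 0.01. Both named ATP sulfurylases, which activate sulfate, had separate groups with opposite signs, where groups did not overlap in 9.69% of all probe sets. APS4 read 10.80, 10.77 and 11.06 against 10.02, 10.23 and 10.29 in WT, a difference of 0.70 ± 0.16 (adjusted p = 0.122). APS3 read 5.97, 5.49 and 5.90 against 6.76, 6.28 and 6.17, at -0.62 ± 0.26 (adjusted p = 0.627). Neither passed. APS4 was called at 0.70 in a model of all 24 arrays (adjusted p = 0.0139) and at 0.66 with array weights (adjusted p = 0.0249). Those settings called more probe sets in all, 246 and 561 against 81 in the main fit. SIR, the sulfite reductase that makes sulfide, differed by 0.01. Among 11 markers of sulfur limitation, AT1G04770 read 6.74, 6.73 and 6.88 against 6.71, 6.21 and 6.19, at 0.41 ± 0.34, and BGLU28 differed by 0.05; neither passed.

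Downstream of cysteine, 2 of 13 glutathione genes were measured and none passed. GR1, a glutathione reductase, read 7.81, 7.84 and 7.62 in oas-a1.1 and 7.42, 7.41 and 7.32 in WT; all mutant arrays were higher, at 0.37 ± 0.13 (adjusted p = 0.433). The other glutathione reductase, GR, differed by 0.06. In methionine metabolism 3 of 14 were measured: the methionine-cleaving enzyme MGL at -0.63, the homocysteine methyltransferase HMT-1 at 0.24 and the cystathionine beta-lyase CBL at -0.07, none called.

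Of the enzymes that remove superoxide and peroxide, 3 of 34 were measured, all 3 were positive and none passed, with a median of 0.42. The ascorbate peroxidases of stroma and thylakoid, SAPX and TAPX, differed by 0.45 ± 0.16 (adjusted p = 0.432) and 0.42 ± 0.15 (adjusted p = 0.489), and ATMDAR2, a monodehydroascorbate reductase, by 0.20. No listed superoxide dismutase or catalase had a named probe set. Of 13 oxidative stress markers 4 were measured and none passed. NDB2, an external alternative NAD(P)H dehydrogenase of mitochondria, read 7.39, 8.13 and 8.45 in oas-a1.1 and 7.0, 6.91 and 6.45 in WT. The mutant arrays were all higher but spread widely, and the difference was 1.2 ± 0.24 (adjusted p = 0.0781). NDB2 was called at 1.2 among the upper 60% of probe sets (adjusted p = 0.0367). With array weights the difference was 1.24 (adjusted p = 0.00643), and without oas-a1.1 replicate 1 it was 1.50 (adjusted p = 0.0139). These settings called 144, 561 and 138 probe sets in all, against 81 in the main fit. STZ, AT2G21640 and GSTU25 differed by -0.09, 0.07 and -0.03.

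Of 14 glutathione S-transferases, which conjugate glutathione to toxic compounds, none was called and the median was 0.06. GSTU22 read 6.81, 7.13 and 7.48 in oas-a1.1 and 5.89, 5.71 and 5.99 in WT. The groups were separate, and the difference of 1.28 ± 0.33 did not pass (adjusted p = 0.195). It was called at 1.28 in a model of all 24 arrays (adjusted p = 0.0145) and at 1.35 with array weights (adjusted p = 0.0369). Both settings called more probe sets in all than the main fit, as given for APS4. Of 8 thioredoxins and glutaredoxins 2 were measured: the glutaredoxin GRX480 and the sulfiredoxin SRX differed by 0.42 and 0.13. The median of 4 glutaredoxins was 0.01, and that of 5 methionine sulfoxide reductases was 0.08, with MSRB5 at -0.74 (adjusted p = 0.359). Of 15 metal-binding and transport genes 1 was measured, the metallothionein MT1C, at 0.22. Of 14 heat shock genes 2 were measured: AT2G20560, of the DnaJ chaperones, differed by 1.2 ± 0.30 (adjusted p = 0.178) and ATHSP22.0 by -0.09. AT2G20560 was called with array weights (adjusted p = 0.0217) and without oas-a1.1 replicate 1 (adjusted p = 0.0468), settings that also called more probe sets in all. No member of the 2 redox lists, the glutathione, sulfate, methionine or heat shock lists was called.

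In the clock and cold-regulated list, 3 of 22 genes were measured, of which 1 rose and 1 fell, where 0.356% of all probe sets were called. Its members were chosen with earlier results of these data known, so this count is only a description. GI, which encodes the clock protein GIGANTEA, read 8.76, 8.96 and 9.10 in oas-a1.1 and 8.22, 8.14 and 8.10 in WT. The WT arrays were nearly equal and the mutant arrays all higher, a rise of 0.79 ± 0.12 (SE; limma, adjusted p = 0.0194). AT4G33980 read 6.31, 6.09 and 6.21 in oas-a1.1 and 7.95, 7.67 and 7.68 in WT. The groups were tight and far apart, a fall of -1.56 ± 0.20 (SE; limma, adjusted p = 0.00797), or 2.96-fold. COR27, the cold- and clock-regulated relative of AT4G33980, read 7.70, 7.31 and 7.71 against 7.56, 8.27 and 7.77, with overlapping groups and a difference of -0.29 ± 0.19 that was not called. The call of AT4G33980 was lost without WT replicate 1, at an adjusted p of 0.0533, and that of GI held only without oas-a1.1 replicate 1. Transcripts of these genes vary with the hour, and whether the groups were harvested at the same hour was not tested.

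Families that act on the cell wall, as defined by symbol, held a single call. The called glucan-hydrolysing enzyme AT4G18340, at -1.14, is in none of these families. Of 9 xyloglucan endotransglucosylases, which cut and rejoin wall xyloglucan, 6 were positive and 3 negative with a median of 0.55, none was called, and groups did not overlap in 5, against 9.69% of all probe sets. XTH19 differed by 0.84 ± 0.34, XTH33 by 0.81 ± 0.25 and XTH20 by -0.75 ± 0.26. The 18 expansins, which loosen walls, had a median of -0.02 and no call, with EXPB1 at 0.86 ± 0.21 (adjusted p = 0.165). EXPB1 was called in a model of all 24 arrays (adjusted p = 0.0385) and with array weights (adjusted p = 0.0168), and XTH33 with array weights (adjusted p = 0.0357). Among 20 beta-glucosidases BGLU46 was the sole call, where 0.193% of all probe sets were called lower. This family too was chosen with earlier results of these data known. Of 47 UDP-glycosyltransferases with a family symbol, 34 were positive and 13 negative with a median of 0.12, and none was called. The called UDP-glycosyltransferases AT5G05890 (-1.17) and AT3G46690 (-0.76) both fell, carry no family symbol and are not among the 47. UGT72E2, which glucosylates monolignols, read 9.20, 9.93 and 10.23 against 8.55, 8.12 and 8.66 in WT. The groups were separate, at 1.34 ± 0.27 (adjusted p = 0.0783). UGT72E2 was called at 1.34 among the upper 60% of probe sets (adjusted p = 0.0336) and with the trended prior (adjusted p = 0.045). It was also called at 1.34 in a model of all 24 arrays (adjusted p = 0.00259). With array weights the difference was 1.56 (adjusted p = 0.0042), and without oas-a1.1 replicate 1 it was 1.64 (adjusted p = 0.0192). Each of these settings, like those named for EXPB1 and XTH33, called more probe sets in all, from 92 to 561 against 81.

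The defence, hormone and iron lists gave no call. Of 25 salicylate, jasmonate and defence genes 3 were measured, with a median of 0.02: WRKY53 and the defensins PDF1.2 and PDF1.2b, the latter at 0.02 and 0.18. WRKY53, a senescence and defence factor, read 6.71, 7.0 and 6.36 against 7.90, 7.75 and 6.77, at -0.78 ± 0.27 (adjusted p = 0.426). The groups overlapped, and without WT replicate 3 the difference was -1.14 with an adjusted p of 0.0491. CML38, a calmodulin-like calcium sensor, read 5.35, 5.17 and 4.53 against 8.21, 6.57 and 5.64 in WT, at -1.79 ± 0.69 (adjusted p = 0.555); its WT arrays spread over more than the gap between the groups. The 7 class III peroxidases, 23 cytochromes P450, 6 WRKY factors, 5 defensins, 7 Aux/IAA proteins and 7 calmodulin-like proteins had medians of 0.00, 0.05, -0.01, -0.28, -0.01 and -0.20. The 4 iron deficiency genes measured of 26, 4 cold and abscisic acid genes of 13 and 2 glucosinolate genes of 22 had medians of -0.04, 0.04 and 0.24. Lists for nitrate and phosphate nutrition and for ethylene had no named member and were not analysed.

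The mean level of green tissue markers was highest on a single mutant array. All 5 measured of 23 nuclear photosynthesis genes had positive differences, from 0.06 to 0.65 with a median of 0.30, and none was called. Their mean level was 6.33, 7.06 and 5.91 in oas-a1.1 and 5.82, 6.21 and 6.31 in WT, so oas-a1.1 replicate 2 was highest and replicate 3 was below 2 WT arrays. LHCB4.1, of the light-harvesting antenna, was an exception, highest in WT replicate 3 at 9.21 against 8.81 in oas-a1.1 replicate 2. RCA read 7.39 in oas-a1.1 replicate 2 and 6.03 to 6.54 on the other 5 arrays. The 69 plastid-encoded genes had a median of -0.09 and no call. The 3 root markers measured of 15 had a median of -0.28, with mean levels of 8.17 to 8.47 in oas-a1.1 and 8.43 to 8.61 in WT. Without oas-a1.1 replicate 2, 38 probe sets were called, and 18 of the 32 calls made up of the named genes and the unnamed fall were lost. The losses were 23, 25 and 12 without WT replicates 1, 2 and 3, and 3 and 21 without oas-a1.1 replicates 1 and 3. The part of these markers in the calls was not tested.

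**Figure D4:**
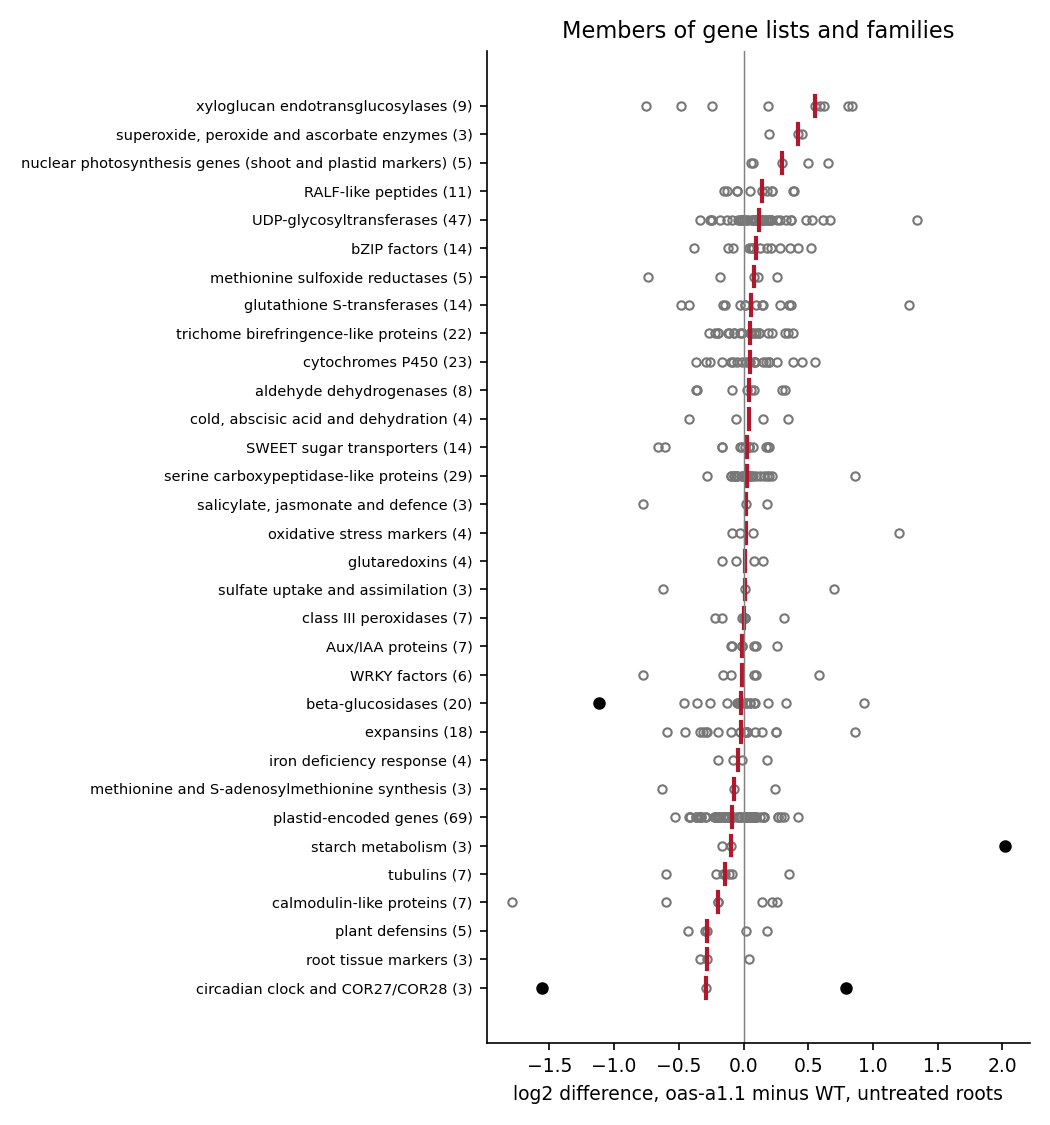
Difference between oas-a1.1 and WT in untreated roots (x axis, log2) of each measured member of the gene lists and families with at least 3 probe sets (number in brackets); filled points were called, open points were not, and the red line is the median. Most medians lie near 0, and the filled points are QQS, GI, AT4G33980 and BGLU46.

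The same genotypes were compared in cadmium-treated roots, which gives the mutant effect under cadmium. The means of the 2 comparisons come from different arrays, while all 12 root arrays share the estimate of the spread. There 395 probe sets were called (1.74%), 277 higher (1.22%) and 118 lower (0.519%), and 672 with the replicate number as a block. Of the 81 calls in untreated roots, 41 had the same sign with cadmium, 8 were called with the same sign and 4 with the opposite sign. The median with cadmium was 0.06 for the genes higher in untreated roots and 0.06 for those lower. Over all probe sets the effects in untreated and treated roots had a Pearson r of 0.00, a description across 22746 probe sets that are not independent.

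The difference between the untreated and the cadmium effect was called for 170 probe sets (0.747%), and 36 of the 81 were among them, 15 higher and 21 lower, 12 with a named gene. The 81 were picked on the untreated arrays that also enter this difference, so the count is a description. AT2G36690 differed between treatments by 2.04 ± 0.28 (limma, adjusted p = 0.0129), with an effect of 0.07 under cadmium. AT1G30820, the CTP synthase, differed by -2.03 ± 0.29 (adjusted p = 0.0129): its effect was -1.37 without cadmium and 0.65 with it. AT4G18340 differed by -1.88 ± 0.24 (adjusted p = 0.0124), from -1.14 to 0.74, and AT2G18210 by -1.58 ± 0.22 (adjusted p = 0.0129), from -0.85 to a called 0.73. AT4G33980 read 4.85 ± 0.40 (SD, n = 3) in WT and 5.01 ± 0.28 in oas-a1.1 with cadmium, both below either untreated group, and its effect differed by -1.73 ± 0.28 (adjusted p = 0.0253). GI was also higher with cadmium, by 0.71 ± 0.12 (adjusted p = 0.0154), with a difference between treatments of 0.08 ± 0.16. AT1G59740 was at 0.52 ± 0.12 with cadmium (adjusted p = 0.0607), and its difference between treatments was not called (0.53 ± 0.17, adjusted p = 0.267).

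Untreated shoots give the mutant effect in the other organ. There 331 probe sets were called (1.46%), 146 higher (0.642%) and 185 lower (0.813%). Of the 81 root calls 46 had the same sign in shoots, 6 were called with the same sign and 2 with the opposite sign. The medians in shoots were 0.05 for the genes higher in roots and -0.04 for those lower, and the Pearson r over all probe sets was 0.13. The root and the shoot effect differed for 173 probe sets (0.761%), and 37 of the 81 were among them, 10 with a named gene, again with the root arrays used in both.

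QQS rose in shoots as it did in roots, by 2.02 ± 0.22 (adjusted p = 0.00298), from 7.01 ± 0.18 (SD, n = 3) to 9.03 ± 0.13, and by 1.30 ± 0.23 in cadmium-treated roots (adjusted p = 0.0196). It and the unnamed probe set with the largest fall were the 2 that were called with the same sign in all 3 comparisons. AT4G33980 fell in shoots too, by 0.75 ± 0.13 (adjusted p = 0.019), and AT2G38180 rose there by 0.94 ± 0.17 (adjusted p = 0.0239). AT5G19120 went the other way: it rose in shoots by 1.2 ± 0.19 (adjusted p = 0.015) and fell in roots, a difference between organs of -2.76 ± 0.35 (limma, adjusted p = 0.000727). AT2G36690 was at 4.30 ± 0.03 (SD, n = 3) in oas-a1.1 shoots and 4.32 ± 0.09 in WT shoots, so low on the array scale that a shoot effect could hardly be read. Its difference between organs of 2.12 ± 0.25 (adjusted p = 0.000325) therefore mainly restates the rise in roots. AT5G05890 differed by -1.33 ± 0.22 (adjusted p = 0.0044), with an effect of 0.16 ± 0.17 in shoots. GI was level in shoots, at 0.02 ± 0.14, and its difference between organs was not called (0.77 ± 0.18, adjusted p = 0.0518).

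**Figure D5:**
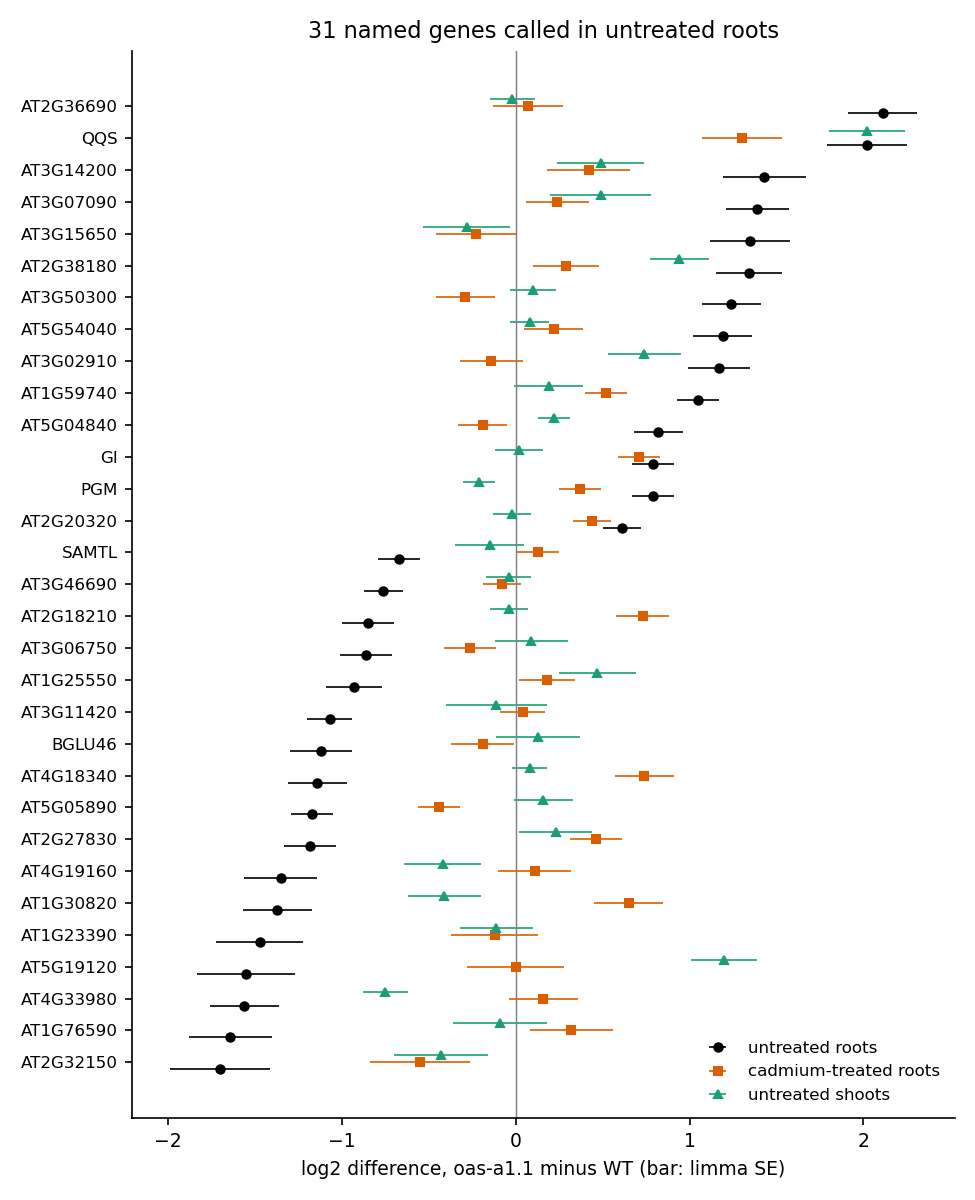
Mutant effect (x axis, log2, oas-a1.1 minus WT, bars are limma SEs) of the 31 named genes called in untreated roots, in untreated roots, cadmium-treated roots and untreated shoots. Most genes lie near 0 in the other 2 comparisons, QQS is high in all 3, and AT5G19120 is at -1.55 in untreated roots and 1.2 in shoots.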

How the data were processed

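Total RNA of 24 ATH1 arrays was read from the authors' table of log2 values, which the authors deposited after RMA with the affy package, per the submitters' processing notes; their versions, and which arrays were normalized together, are not stated in the labels. RMA compresses low levels, so a fold on this scale may understate a change of a dim gene. The number of arrays limits the precision. All 24 columns matched a sample label. The 64 control probe sets were left out, 22746 were kept with no filter on level, and 13436 of the 13513 single-gene probe sets matched the reference gene table (TAIR10.1) by gene ID; 503 list several genes and 8730 none. The array annotation names no genome build, so no coordinates are given.

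Roots were fitted with limma 3.58.1 in R 4.3.3 as group means over 12 arrays, shoots likewise, and the difference between organs over all 24. Tests were two-sided with Benjamini-Hochberg adjustment over all probe sets, and the fit was tested on simulated data. SDs are over 3 arrays of a group and SEs are from limma. Genes were named by rule: every called probe set with a single gene, all measured members of the sulfur, glutathione, clock and peroxide lists, and of other lists the called members and up to 4 with the smallest p. The members and lists were chosen with earlier results of these data known. Of 339 list entries in 20 lists, 50 had a named probe set. A further 22 families were defined by symbol, 11 of them, the plastid-encoded set and corrections to the peroxidase, defensin and glutaredoxin definitions after the files were seen; aquaporins and 2-oxoglutarate-dependent dioxygenases matched no named symbol. Alternatives were a filter on level, other sets of arrays, centring, quantile normalization, a trended prior, array weights, the replicate number as a block, the 25S level as a covariate and each array left out. No sequence of these genes was used. In cadmium-treated roots the deviations of same-numbered arrays correlated at 0.639, 0.111 and 0.218. There oas-a1.1 replicate 2 correlated better with WT replicate 3 (0.217), and oas-a1.1 replicate 3 with WT replicate 2 (0.325). The numbers therefore do not settle which arrays pair. All main fits used group means without pairing, in roots and in shoots, and the block by replicate number is given only as an alternative.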

Additional observations from a re-analysis of the deposited data

Results flagged for a closer look

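The mutant effect differed between untreated and cadmium-treated roots by an interaction test (limma) for 170 probe sets. Among the named genes called in untreated roots, the difference, untreated minus cadmium, was positive for AT2G36690 (2.04), AT3G50300 (1.53), AT3G02910 (1.30) and AT5G04840 (1.01). It was negative for AT1G30820 (-2.03), AT1G76590 (-1.96), AT4G18340 (-1.88), AT4G33980 (-1.73), AT2G27830 (-1.64), AT2G18210 (-1.58), AT1G25550 (-1.12) and AT3G11420 (-1.10).

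Between untreated roots and untreated shoots the effect differed for 173 probe sets by the same kind of test. Root minus shoot, the difference was positive for AT2G36690 (2.12), AT3G15650 (1.63), AT3G50300 (1.14), AT5G54040 (1.11) and PGM (1.00). Shoot levels of these 5 were low in both genotypes, from 4.07 in WT for AT5G54040 to 4.83 in WT for PGM, so a shoot effect could hardly be read and the difference mainly restates the rise in roots. It was negative for AT5G19120 (-2.76), AT2G27830 (-1.41), AT1G25550 (-1.40), AT5G05890 (-1.33) and AT4G18340 (-1.22). The same holds for AT4G18340, at 4.16 in WT and 4.24 in oas-a1.1 shoots. These genes were picked for their effect in untreated roots, whose arrays enter both differences, so no size given here is independent of that choice.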

How the results depend on the processing

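None of the 31 named genes and the unnamed fall called in untreated roots changed direction under any setting run; the directions of other calls were not followed. In untreated roots the 81 calls became 144 (60 higher, 84 lower) among the upper 60% of probe sets by level, 36 with the compared arrays alone, 246 (91 and 155) in a model of all 24 arrays and 561 (219 and 342) with array weights; they were 89 to 119 with the 25S covariate, the trended prior, quantile normalization or centring, and 17 to 138 with an array left out. Of these 32, 23 lost their call with the compared arrays alone, 5 with the trended prior, 3 each with quantile normalization and the 25S covariate, and none with centring; 23, 25 and 12 did without WT replicates 1, 2 and 3, and 3, 18 and 21 without those of oas-a1.1. Of 127 list members not called, 4 gained a call in the model of all 24 arrays and 11 with array weights.

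With the replicate number as a block the count in untreated roots was 174 (58 higher, 116 lower), and none of the 32 called genes lost its call. In untreated roots same-numbered arrays correlated in their deviations at 0.405, -0.111 and 0.404, and arrays of different numbers at -0.452 to 0.103. Replicates 1 and 3 each correlated best with their own number, while oas-a1.1 replicate 2 did not. The numbers thus do not settle the pairing, and the main fits left it out. In shoots the values were -0.215, 0.141 and -0.251. With the block the counts were 672 in cadmium-treated roots, 385 for the difference between treatments and 665 in shoots.

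In cadmium-treated roots the 395 calls were 152 with the compared arrays alone, 689 in the model of all 24 arrays, 727 with array weights and 116 to 250 with an array left out. The 170 calls of the difference between treatments were 263 among the upper 60%, 441 in the model of all 24 arrays, 828 with weights and 41 to 243 with an array left out. In shoots the 331 were 64, 515, 1850 and 45 to 838 for the compared arrays, all 24, weights and an array left out. The 173 of the difference between organs were 101, 2176 and 71 to 394 for the compared arrays, weights and an array left out. The causes of these shifts were not tested.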

Other observations

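Other families, defined by symbol, were measured with several members in untreated roots and had no call among the members so matched. Of 29 serine carboxypeptidase-like genes 19 were positive, with a median of 0.03, and scpl31 read 7.91, 9.17 and 8.07 in oas-a1.1 against 7.72, 7.12 and 7.73 in WT (0.86 ± 0.41, limma, adjusted p = 0.779). Of 11 RALF-like peptide genes, small secreted signals, 7 were positive with a median of 0.14. The 14 SWEET sugar transporters had a median of 0.03, with SWEET11 at -0.66 and SWEET16 at -0.61. The 22 trichome birefringence-like genes, which act on wall polysaccharide acetylation, had a median of 0.05. Of 7 tubulins 6 were negative, with a median of -0.14, and TUB7 was the positive one at 0.35 ± 0.14 (adjusted p = 0.62). The 8 aldehyde dehydrogenases had a median of 0.04, with ALDH6B2 at -0.37 and ALDH2C4 at 0.32. The 14 bZIP factors with a family symbol had 11 positive members and a median of 0.10. The called bZIP factor AT5G04840, at 0.82, carries no family symbol and is not among them.

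Genes with no call in untreated roots differed in some cases with cadmium. PRX52, a class III peroxidase, was at -0.22 in untreated and 2.87 in cadmium-treated roots (limma, adjusted p = 0.0163), EXPB1 at 0.86 and -1.30 (adjusted p = 0.0135), XTH19 at 0.84 and -1.84 (adjusted p = 0.0236), and WRKY53 at -0.78 and 1.30 (adjusted p = 0.036). The difference between treatments was called for EXPB1 (2.16, limma, adjusted p = 0.0129), XTH19 (2.68, adjusted p = 0.0354) and WRKY53 (-2.08, adjusted p = 0.0368). It was not called for PRX52 (-3.08, adjusted p = 0.0699).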
